A study of Homo sapiens with 17 samples.

Results

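The sites described here are the positions that TV-PRO-seq listed on the minus strand of the human mitochondrial genome. They are all rows of 4 deposited pausing-time tables with chromosome chrM and strand minus, taken without any threshold on the values. Together they make 862 distinct positions of the 158141 in the whole series. Sarkosyl replicate 1 listed 490 of them among 48566 sites, sarkosyl replicate 2 listed 493 of 47713, sarkosyl-free replicate 1 listed 317 of 66089, and sarkosyl-free replicate 2 listed 287 of 41769. By the annotation, 744 of the 862 positions lay in sequence without a gene on this strand, 61 in the control region, 34 in tRNA genes, 21 in MT-ND6, and 2 in the gap between MT-TN and MT-TC.

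The cells were HEK293, an established line from human embryonic kidney. In TV-PRO-seq, permeabilised cells run on for different times, and the rate at which label appears at a position is fitted over those times. Run-on lasted 0.5, 2, 8 or 32 min, in a buffer with sarkosyl (a detergent that strips many proteins from DNA while engaged polymerases can continue) or in a buffer without it, and each of the 16 libraries was untreated otherwise as far as the labels say. Each buffer has 2 replicates, described as biological duplicates, and each table is 1 buffer and 1 replicate, with its 4 run-on times fitted together as far as its name tells. A pausing time is the reciprocal of the authors' fitted median rate. Its unit of time was not stated and read numbers were not given, so times are printed as deposited and the depth behind a site is unknown.

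Both strands of human mitochondrial DNA are transcribed by the single-subunit polymerase POLRMT into long transcripts that span almost the whole circle. Minus-strand transcription starts at the light-strand promoter in the control region, passes MT-TP first, and yields the mRNA of MT-ND6, a subunit of respiratory complex I, and 8 tRNAs. The rest of this transcript is antisense to the genes of the plus strand. The tRNAs are cut out of the transcript at both ends, by RNase P at the 5′ end and by ELAC2 at the 3′ end, and the CCA tail of a tRNA is added after that cut. The factor MTERF1 binds within MT-TL1 and is known to stop minus-strand transcription there, ahead of the ribosomal RNA genes.

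The 3′ ends of 4 of the minus-strand tRNA genes are shown first, because of long pausing times near such ends. Within a few bases of them lay 4 of the 10 longest times of each sarkosyl table, including the longest. So did 6 of the 12 longest of sarkosyl-free replicate 2 and 1 of the 10 longest of sarkosyl-free replicate 1. Capitals mark the last 12 bases of the gene and lower case the 12 bases that follow it, as transcribed, from GENCODE release 29 transcripts on GRCh38.
MT-TQ, chrM:4317-4340: TCATAGTCCTAGaaataagggggt
MT-TY, chrM:5814-5837: CTCTTTTTACCAgctccgaggtga
MT-TS1, chrM:7434-7457: CTTCCTTTTTTGtctagattttat
MT-TE, chrM:14662-14685: CGTGCGAGAATAatgatgtatgct
In the MT-TE window the lower-case bases are the first bases of MT-ND6, since the 2 genes abut. In the MT-TY window the last gene base is shared with MT-TC, which continues into the lower-case bases. The MT-TS1 and MT-TQ windows run on into sequence antisense to MT-CO1 and MT-TI.

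The tables of a buffer shared most of their minus-strand sites, and fewer were shared across buffers. The sarkosyl tables had 398 positions in common, 81.2% of the smaller list, and the sarkosyl-free tables had 178, or 62.0%. The 4 pairs across buffers shared 96 to 116 positions, 33.4% to 36.6% of the smaller list. Of the 862 positions, 343 were in 1 table only, 380 in 2, 72 in 3 and 67 in all 4. Across positions shared by a pair, Spearman's rho of the pausing time was 0.56 with sarkosyl (398 positions) and 0.39 without it (178 positions). Across buffers rho was 0.42 and 0.11 for sarkosyl replicates 1 and 2 against sarkosyl-free replicate 1, and -0.04 and -0.24 for the same replicates against sarkosyl-free replicate 2. Positions are not independent replicates, neighbours share a polymerase and a library, and these values only describe the tables.

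**Figure D1:**
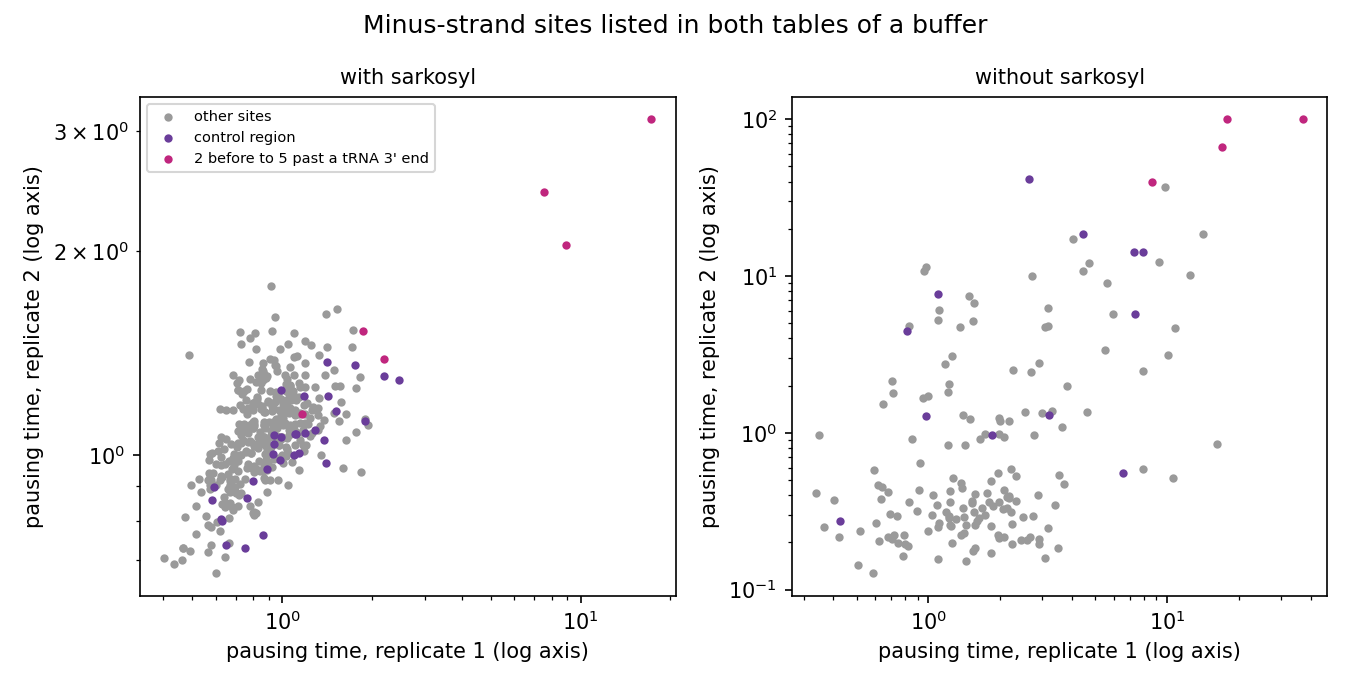
Pausing time of minus-strand positions listed in both tables of a buffer, replicate 1 on the x axis and replicate 2 on the y axis, both log axes, 398 positions with sarkosyl and 178 without. Each point is 1 position, and the points from 2 bases before to 5 past a tRNA 3′ end include the longest shared times in both panels.

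One sarkosyl-free table stood apart in its spread. Minus-strand sites had a median pausing time of 0.871 and 1.06 in sarkosyl replicates 1 and 2, of 1.96 in the first sarkosyl-free replicate and of 0.470 in the second. The quartiles of their log2 pausing time ran from -0.47 to 0.08 and from -0.07 to 0.26 with sarkosyl. They ran from 0.13 to 1.89 in sarkosyl-free replicate 1 and from -1.81 to 1.65 in sarkosyl-free replicate 2. In that last table most sites were short and a smaller number were very long, so each comparison below is given table by table.

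The median pausing time of minus-strand sites was shorter than that of autosomal sites in every table, but by very different amounts without sarkosyl. The median log2 pausing time minus that of chromosomes 1 to 22 was -0.80 and -0.35 in the sarkosyl tables (mean -0.57 ± 0.31, SD, n = 2), against -0.18 and -4.12 in the sarkosyl-free ones (mean -2.15 ± 2.79, SD, n = 2). The buffers did not separate (difference 1.58, two-sided exact permutation test, p = 1). With 2 tables against 2, this test cannot give a p-value below 0.33. Without sarkosyl-free replicate 2 the difference between buffers turned to -0.40, and among the 50% of sites with the narrower fitted rates it was -0.20. With that filter the sarkosyl-free mean turned to 0.17 ± 0.88 (SD, n = 2) and the sarkosyl mean was -0.0256 ± 0.11 (SD, n = 2). The width of a fitted rate, relative to its median, itself varied with the pausing time among the sites named here. The filter can thus also select on pausing time, and its values do not show that better measured sites differ.

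The plus strand, transcribed by the same polymerase, is the closest comparison. The median of the minus strand minus that of the plus strand was -0.58 and -0.10 with sarkosyl (mean -0.34 ± 0.34, SD, n = 2). Without sarkosyl it was -0.32 in replicate 1 and 0.53 in replicate 2 (mean 0.10 ± 0.61, SD, n = 2). The sarkosyl-free tables thus lay on opposite sides of 0, and the buffers overlapped (difference -0.45, exact permutation p = 0.67). The difference between buffers was 0.19 among those more certain 50% of sites, with the same limit on that filter.

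**Figure D2:**
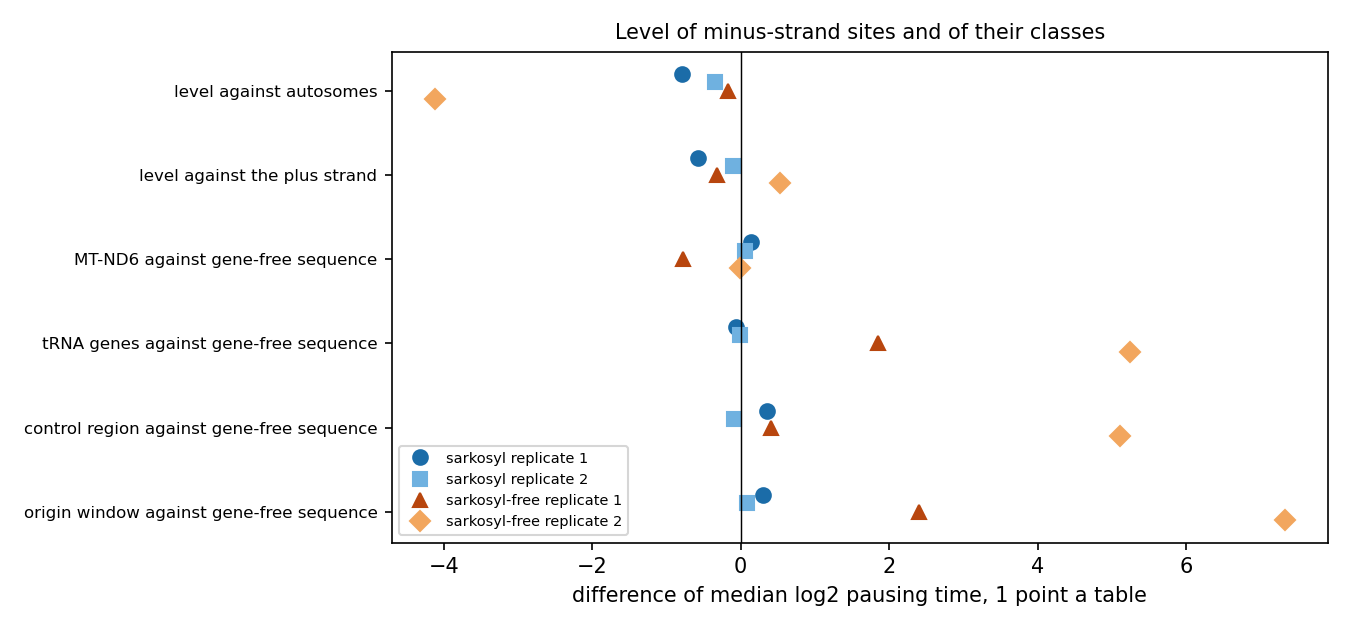
Difference of median log2 pausing time between the minus-strand sites or a class of them (y axis) and its reference, 1 point per table, with 0 as a vertical line. The sarkosyl tables stay between -0.80 and 0.36 in all 6 comparisons, and sarkosyl-free replicate 2 reaches -4.12 against autosomes and 7.33 in the origin window.

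Along the genome, minus-strand sites were spread over the whole stretch from MT-TP to MT-ND1 and became scarce past MT-TL1. Between the start of MT-ND1 and the end of MT-TP (chrM:3307-16023) the tables listed 35.0 and 34.7 sites per kb with sarkosyl against 22.3 and 20.4 without it. From the start of MT-TF to the end of MT-RNR2 (chrM:577-3229), which minus-strand transcription would reach last, they listed 2.26 and 4.15 sites per kb with sarkosyl against 3.02 and 2.26 without it. These are 6, 11, 8 and 6 sites. The density before MT-TL1 was 15.5, 8.36, 7.41 and 9.04 times that past it. On the plus strand the same ratio was 0.69, 0.74, 0.74 and 0.57, so the fall was seen on the minus strand in 4 of 4 tables and on the plus strand in none. These stretches were chosen after values were seen, and no test was made. Without read numbers, these densities count listed sites and not polymerases.

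**Figure D3:**
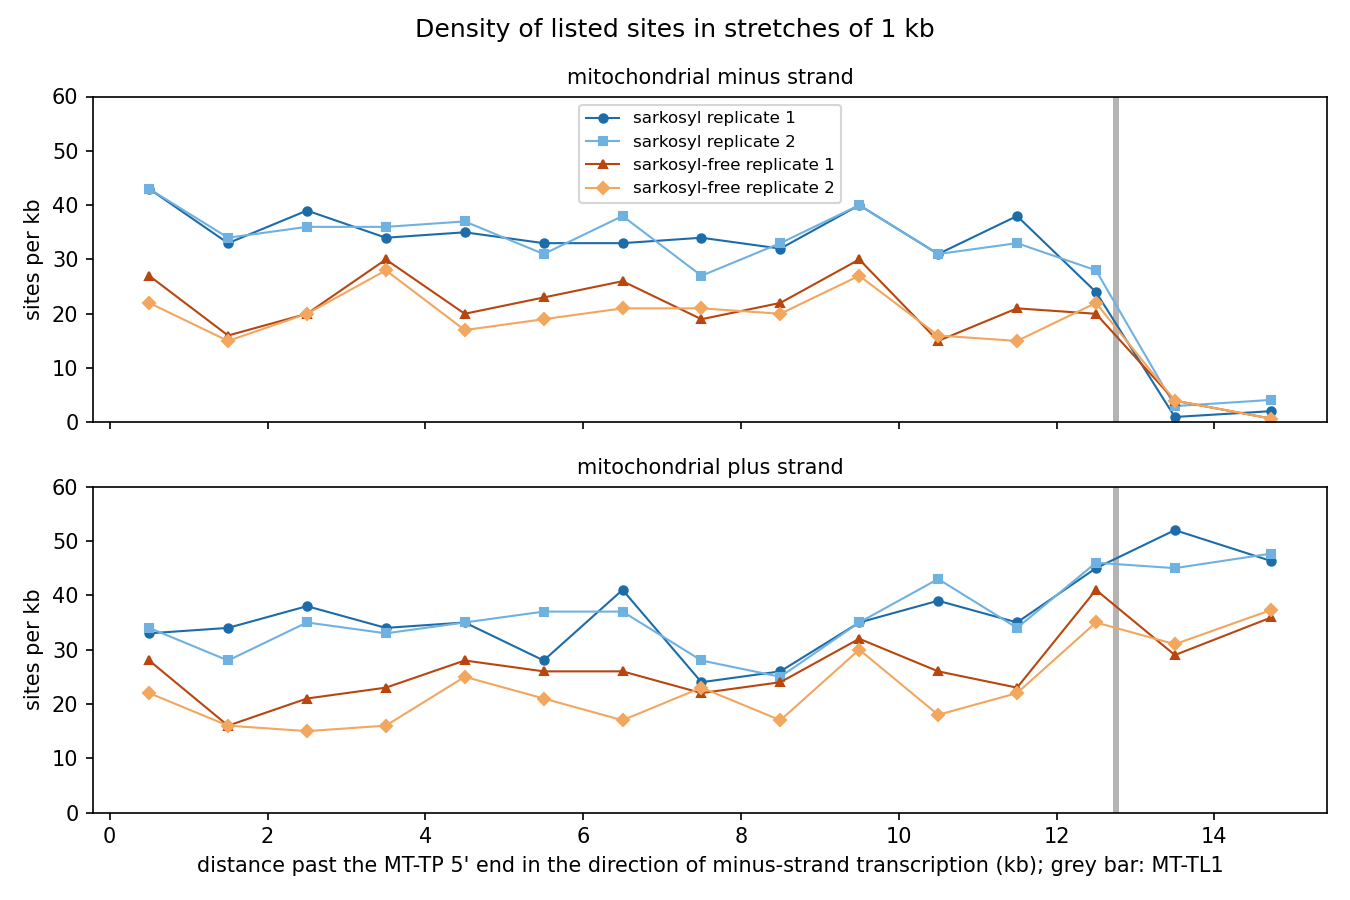
Sites per kb (y axis) in stretches of 1 kb along the direction of minus-strand transcription, counted from the MT-TP 5′ end (x axis, kb; the last stretch is longer and ends at MT-TF), 1 line per table, minus strand above and plus strand below. The minus-strand lines lie between 15 and 43 sites per kb up to the stretch that holds MT-TL1 (grey bar) and between 0.691 and 4.15 past it.

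Within MT-TL1 itself (chrM:3230-3304, a leucine tRNA gene of the plus strand) the tables listed 2, 4, 2 and 2 minus-strand sites. The site at 3249 was in all 4 tables, with pausing times of 0.656 and 0.937 with sarkosyl against 0.980 and 11.5 without it. At 3255 the time was 0.573 in sarkosyl replicate 1 and 21.7 in sarkosyl-free replicate 2. Both sites were long in sarkosyl-free replicate 2, while the pausing time at 3249 was below 1 in the other 3 tables.  The bases around 3249 and 3255, with the site in capitals, are shown because they lie in the gene where the density fell.
Site 3249: agttttatgcgattaCcgggctctgc
Site 3255: gttttaagttttatgCgattaccggg

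Past MT-TL1, 1 position was listed in all 4 tables. This was 2828, antisense to MT-RNR2, with pausing times of 0.496, 0.903, 0.364 and 0.252. It was among the 3 shortest of the 67 positions in all 4 tables. The other 2 were 5556 and 5560, antisense to MT-TW, a tryptophan tRNA gene. At 5556 the times were 0.870 and 0.926 with sarkosyl against 0.583 and 0.128 without it, the last being the shortest minus-strand time of sarkosyl-free replicate 2. At 5560 they were 0.808, 1.12, 0.505 and 0.144. At all 3 positions both sarkosyl-free times lay below both sarkosyl times. They were picked for a low mean over the 4 tables, which low sarkosyl-free times favour. After centring, this order was found at 11.9% of the 67 positions, against 31.6% of all positions on all chromosomes listed in all 4 tables.

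The sarkosyl-free medians were longer close to MT-TP than over the rest of the strand, without a steady trend along it. In gene-free sequence of the first 2000 bases past the MT-TP 5′ end, the median time was 3.07 in sarkosyl-free replicate 1 and 3.80 in replicate 2, against 1.82 and 0.375 farther on. With sarkosyl it was 0.958 and 0.989 near MT-TP, against 0.860 and 1.10 farther on. The log2 differences were 0.75 and 3.34 without sarkosyl and 0.16 and -0.15 with it. In 1 kb stretches over all sites, the median log2 time of sarkosyl-free replicate 2 was 2.26 and 1.63 in the first and second. It was -0.24 or lower in each later stretch but the last, where the only site had 1.65. In sarkosyl-free replicate 1 it was 1.66 in the first but 0.40 in the second and 1.79 in the stretch that starts 11 kb away. Across sites, rho of time with distance was -0.03 and -0.09 in the sarkosyl-free tables, over 284 and 260 sites. The 2000 bases were chosen after values were seen.

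**Figure D4:**
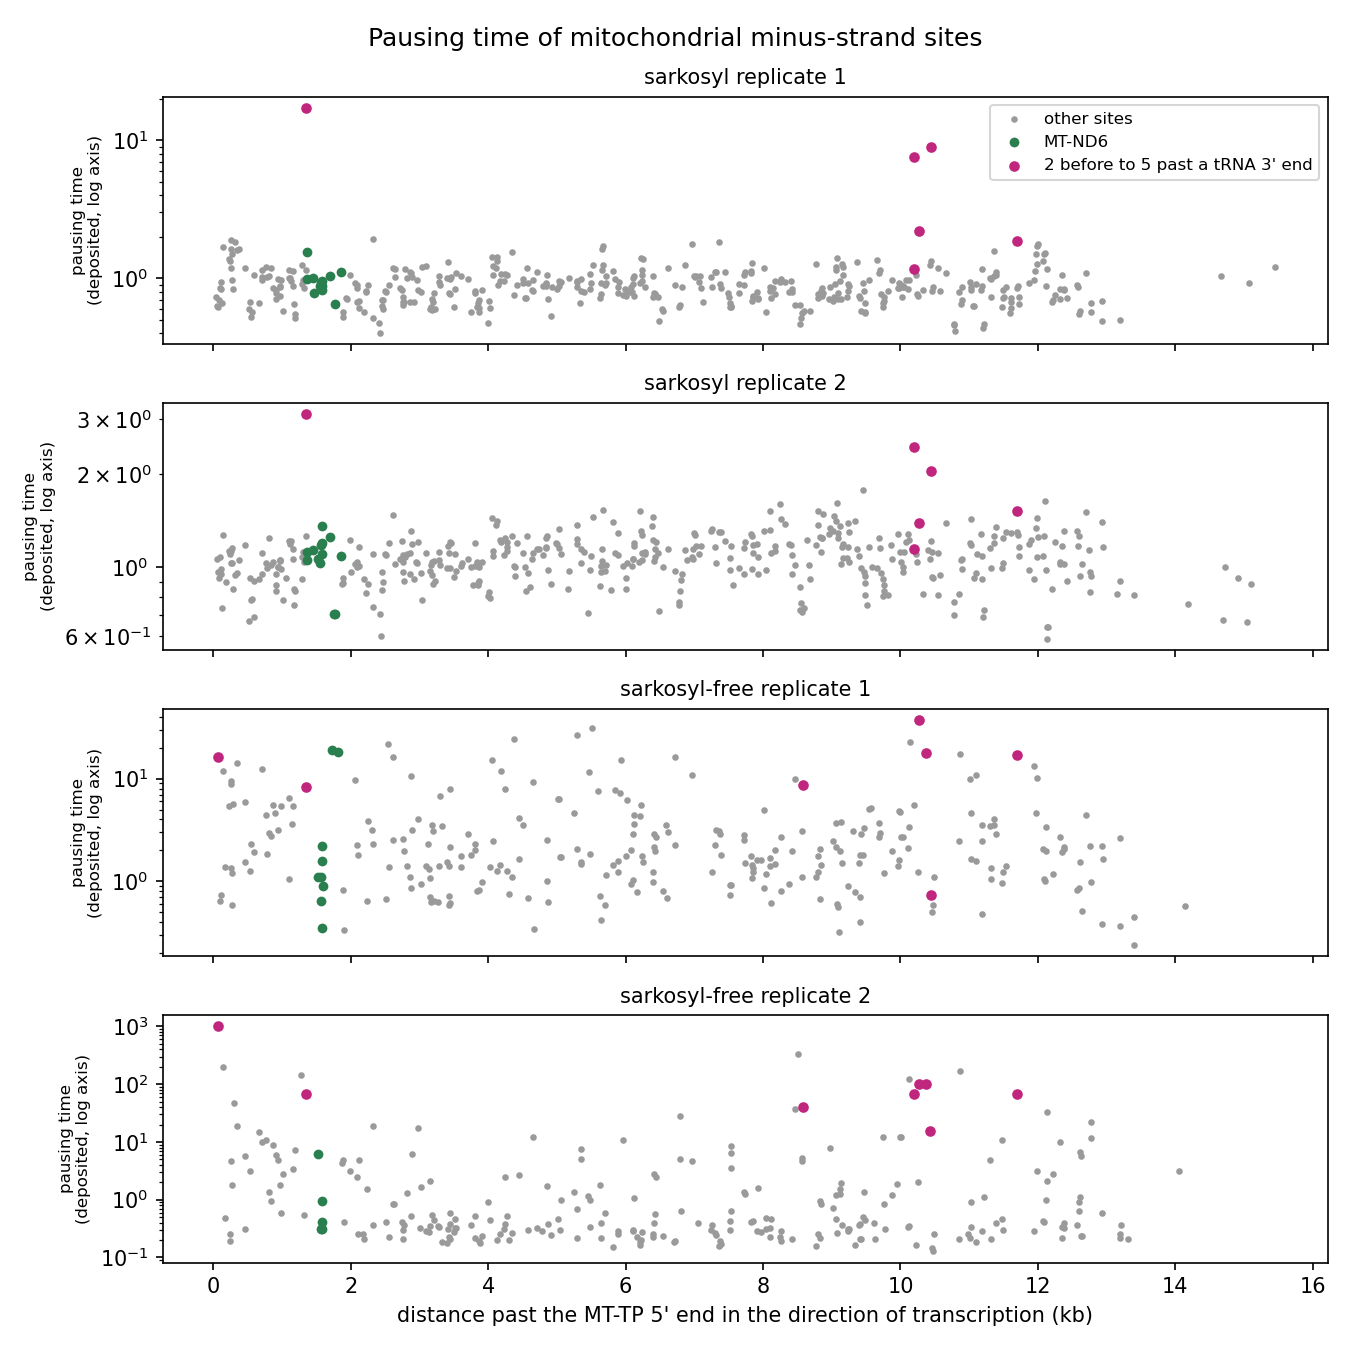
Pausing time (y axis, log, as deposited, with its own range in each panel) of minus-strand sites outside the control region against distance past the MT-TP 5′ end (x axis, kb), 1 panel per table. Pink points lie from 2 bases before to 5 past a tRNA 3′ end and reach 17.2 in sarkosyl replicate 1 and 1000 in sarkosyl-free replicate 2, and green points are the other sites of MT-ND6.

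The 3 longest pausing times of each sarkosyl table lay 3 bases past tRNA 3′ ends. Of the 10 longest, 4 in each table lay from 2 bases before to 5 past such an end. At 14671, 3 bases past MT-TE (glutamate tRNA), the time was 17.2 in sarkosyl replicate 1 and 3.13 in replicate 2, the longest minus-strand time of both tables. Neither sarkosyl-free table listed this position. At 5823, 3 bases past MT-TY (tyrosine tRNA), it was 7.52 and 2.44. At 5584, 3 bases past MT-TA (alanine tRNA), it was 8.93 and 2.04, and the only sarkosyl-free time there was 0.730 in replicate 1. At 5758, 3 bases past MT-TC (cysteine tRNA), it was 2.19 and 1.39, at ranks 7 and 29 from the longest. So 4 of the 8 minus-strand tRNA genes had a site at exactly this distance in both sarkosyl tables, and each of these times was above its table's median. The bases around 2 of the sites, with the site in capitals, show the step from gene to flank.
Site 14671: ccgtgcgagaataatGatgtatgctt
Site 5823: cctctttttaccagcTccgaggtgat

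Without sarkosyl, long times lay at the tRNA ends themselves, mostly within 1 base of the last gene base. At 5760, 1 base past MT-TC, the time was 37.0 in replicate 1 and 100 in replicate 2. At 7445, 1 base past MT-TS1 (serine tRNA), it was 8.62 and 40. At 5652, 5 bases past MT-TN (asparagine tRNA) and inside MT-TA, it was 17.9 and 100. For 2 more genes the replicates differed by 1 base. At MT-TE the time was 8.26 at 14675 in replicate 1 and 66.7 at 14674 in replicate 2. At MT-TP (proline tRNA) it was 16.4 at 15956 in replicate 1 and 1000 at 15957 in replicate 2, the longest of that table and the largest value its rounding allows. At MT-TA replicate 2 had 15.6 at 5587, the last base of the gene, while replicate 1 had only the short time at 5584 given above. At MT-TY replicate 2 had 66.7 at 5827, and the nearest site of replicate 1 was 5829, 3 bases before the last base of the gene, with a time of 5.59.

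MT-TQ (glutamine tRNA) was the only gene whose end carried the same site in all 4 tables with a time above each table's median. At 4328, 1 base past its 3′ end and inside the sequence antisense to MT-TI, the times were 1.87 and 1.52 with sarkosyl against 16.9 and 66.7 without it. The sarkosyl-free times lay above both sarkosyl times. This position had the longest mean time, after centring, of the 67 positions in all 4 tables.

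Taking positions from 2 bases before to 5 past a tRNA 3′ end, the tables held 6, 6, 7 and 8 such sites, at 5, 5, 7 and 8 of the 8 genes. Their median time was 4.06 and 1.76 in the sarkosyl tables, 16.4 in sarkosyl-free replicate 1 and 66.7 in its replicate 2. The median of all other minus-strand sites was 0.869, 1.06, 1.89 and 0.455. On the log2 scale the differences were 2.22, 0.73, 3.11 and 7.20. Sites above their table's median numbered 6 of 6, 6 of 6, 6 of 7 and 8 of 8. The window was chosen after values were seen and no test was made of it. MT-TA, MT-TC, MT-TY and MT-TN lie close together, so their sites also share a stretch of DNA.

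**Figure D5:**
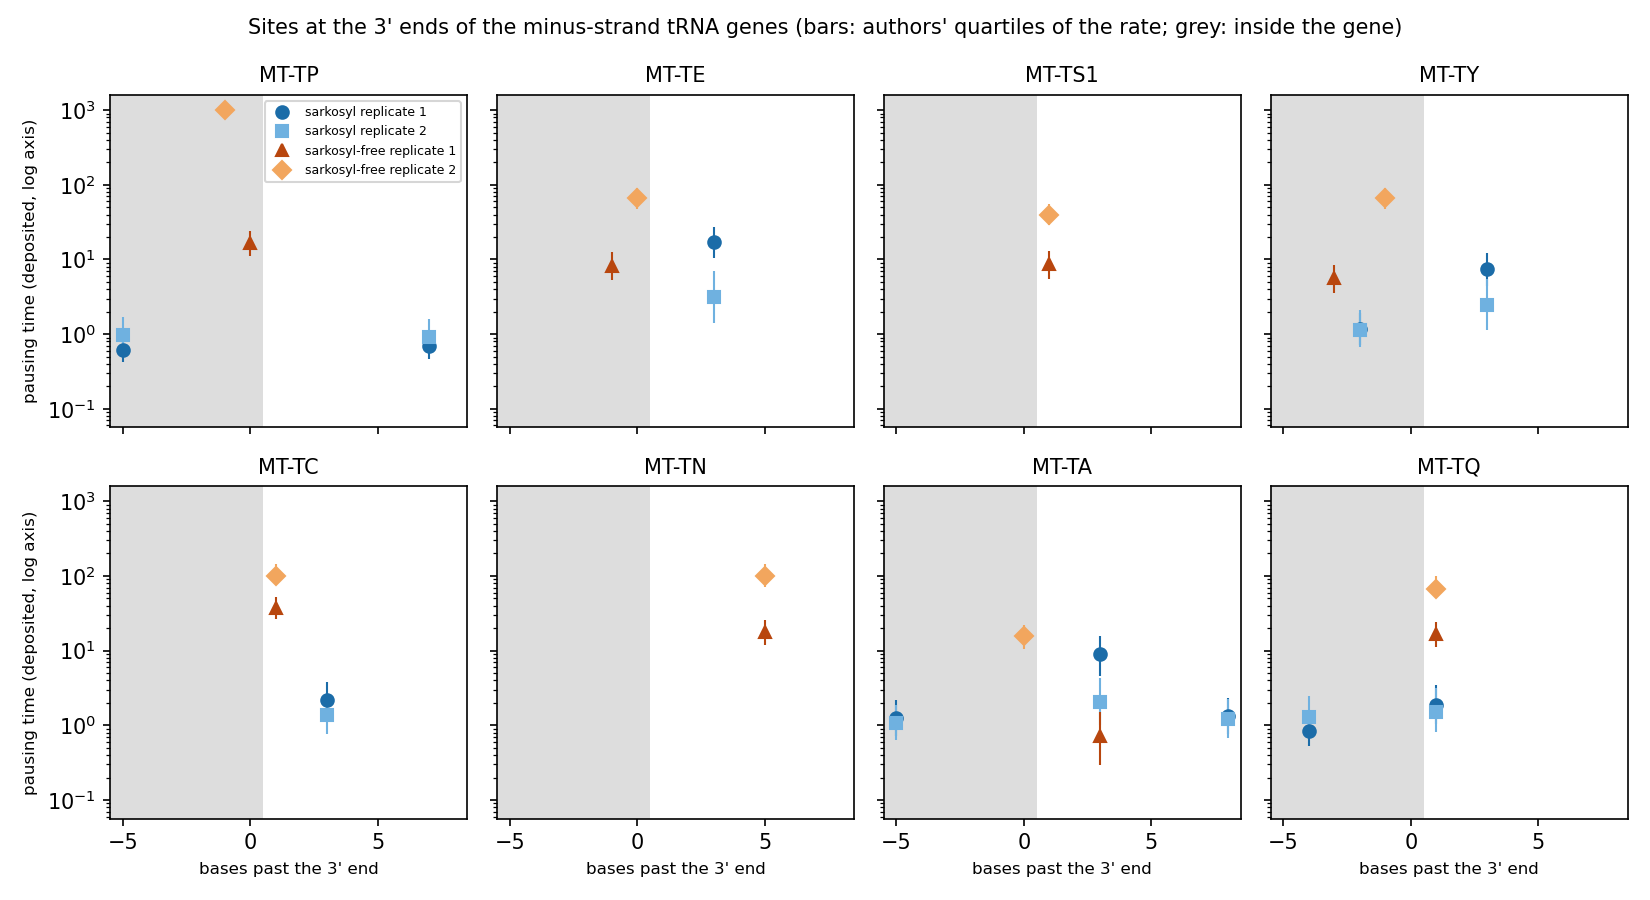
Pausing time (y axis, log, as deposited) of minus-strand sites from 5 bases inside to 8 past the 3′ end of each of the 8 tRNA genes (x axis, bases), with the authors' quartiles of the rate as bars and the gene in grey. Sarkosyl points (blue) sit at 3 bases past MT-TE, MT-TY, MT-TC and MT-TA, and sarkosyl-free points (orange) sit mostly within 1 base of the end.

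Long times in sarkosyl-free replicate 2 also lay at other gene boundaries. Of its 12 longest sites, ties included, 10 were within 3 bases of the end of a gene on either strand, against 5.92% of all its minus-strand sites. They included 15887, antisense to the last base of MT-CYB, and 7517, next to MT-TD, with times of 200 and 333, and 14742, the first base of MT-TE, with 143. They also included 5892, 1 base before MT-TY, with 125. In sarkosyl-free replicate 1 the count was 2 of 10 against 3.79%. With sarkosyl it was 4 of 10 in both tables, against 2.65% and 2.64%.

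The tRNA genes as a class showed longer times than gene-free sequence without sarkosyl. Their 34 positions had median times of 0.829 and 1.06 with sarkosyl against 6.79 and 15.6 without it, over 20, 19, 8 and 11 sites. The median log2 difference to gene-free sequence was -0.06 and -0.01 in the sarkosyl tables (mean -0.03 ± 0.04, SD, n = 2), against 1.84 and 5.24 in the sarkosyl-free ones (mean 3.54 ± 2.40, SD, n = 2). Both sarkosyl-free tables lay above both sarkosyl tables (difference -3.57, exact permutation p = 0.33, the smallest possible). Leaving out the end sites, a choice made after seeing the data, gave 1.82 ± 1.57 (SD, n = 2) without sarkosyl and -0.08 with it.

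Inside the tRNA genes, away from their 3′ ends, MT-TS1 and MT-TE held 6 positions each. The 4 sites of MT-TS1 per sarkosyl table had median times of 0.539 and 0.747. At 7479, 33 bases before its 3′ end, the time was 0.467 and 0.729. The 2 sarkosyl-free positions of MT-TS1, 7455 and 7459, had times of 1.10 and 3.07 in replicate 1 and 5.26 and 4.69 in replicate 2. In MT-TE the sarkosyl times at 14699 were 0.843 and 1.04, and the 1 sarkosyl-free time there was 0.554 in replicate 2. MT-TN held 1 site, 5691, at 0.816 and 0.822 with sarkosyl and unlisted without it. In MT-TQ the site was 4333, at 0.848 and 1.30. In MT-TC, 5769 was at 0.737 in sarkosyl replicate 1 and at 1.22 and 2.05 in the sarkosyl-free tables. In MT-TP, 15961 was at 0.622 and 0.966 with sarkosyl. The named site of MT-TY, 5828, at 1.17 and 1.15 with sarkosyl, lies 2 bases before the 3′ end and is counted with the end sites above. The sarkosyl times of these sites lay between 0.467 and 1.30, on both sides of the gene-free medians of 0.862 and 1.07. The MT-TS1 sites, however, were all short with sarkosyl. Their largest log2 times were -0.65 and -0.21, below the gene-free lower quartiles of -0.48 and -0.07.

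The light-strand replication origin lies in the gap between MT-TN and MT-TC (chrM:5730-5760), where a stem-loop forms when the strand is single. The gap held 2 positions, 5758 with sarkosyl only and 5760 without it only, both described above as ends of MT-TC. No other base of the gap was listed in any table. The window of 100 bases on either side (chrM:5630-5860) held 12 positions, none in all 4 tables. Its median log2 difference to gene-free sequence was 0.30 and 0.08 in the sarkosyl tables (mean 0.19 ± 0.15, SD, n = 2), against 2.40 and 7.33 in the sarkosyl-free ones (mean 4.87 ± 3.49, SD, n = 2), over 7, 6, 4 and 5 sites. The sarkosyl-free tables lay above both sarkosyl tables (difference -4.68, exact permutation p = 0.33). Apart from the 2 positions of the gap, the sites of the window lie in tRNA genes. They are also counted in the tRNA class above, so the 2 comparisons are not independent. Without the tRNA end sites the sarkosyl-free difference was 0.50, over the few sites then left, and with 200 bases on either side it was 0.58.

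MT-ND6 (chrM:14149-14673), the one protein-coding gene of the strand, held 13, 14, 9 and 5 sites. Their median time was 0.953 and 1.11 with sarkosyl against 1.11 and 0.410 without it. The median log2 difference to gene-free sequence was 0.15 and 0.06 in the sarkosyl tables (mean 0.10 ± 0.06, SD, n = 2), against -0.77 and -0.01 in the sarkosyl-free ones (mean -0.39 ± 0.54, SD, n = 2). Both sarkosyl tables lay above both sarkosyl-free tables (difference 0.50, exact permutation p = 0.33). The tables overlapped (exact permutation p = 1) with 1 site per 50 bases, where the difference was 0.0544, with only positions in all 4 tables (0.40), and without positions copied in annotated nuclear transcripts (0.28). Apart from 14671 next to MT-TE, the sarkosyl times in the gene ran from 0.645 to 1.55.

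Sarkosyl-free sites of MT-ND6 were crowded between 14433 and 14459, which held 6 of 9 in replicate 1 and 4 of 5 in replicate 2. At 14445, listed in all 4 tables, the times were 0.953, 1.36, 0.349 and 0.968. At 14450 they were 0.820, 1.20, 2.21 and 0.311. The sarkosyl times differed little between these neighbours, while the order of the sarkosyl-free replicates turned round. At 14508 sarkosyl replicate 2 had a time of 1.06, and the sarkosyl-free replicates had 1.11 and 6.10. The longest sarkosyl-free times in the gene, 18.9 at 14302 and 18.2 at 14204, were listed in replicate 1 only. The bases around the 2 positions found in all tables are given with the site in capitals.
Site 14445: gcgatggctattgagGagtatcctga
Site 14450: ctacagcgatggctaTtgaggagtat

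The control region, which holds the light-strand promoter and carries no gene, had 61 positions. Its median log2 difference to gene-free sequence was 0.36 and -0.08 in the sarkosyl tables (mean 0.14 ± 0.31, SD, n = 2), against 0.41 and 5.11 in the sarkosyl-free ones (mean 2.76 ± 3.32, SD, n = 2). The difference between buffers was -2.63 (exact permutation p = 0.33). Without sarkosyl-free replicate 2 it was -0.28. The number of sites was 37, 37, 23 and 19.

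On the side of the promoter, between position 1 and MT-TF, 35 positions ran from 54 to 381, and none of the tables listed a minus-strand site from there to MT-TF. 2 stretches in between were empty, 82 bases between 124 and 207 and 80 bases between 226 and 307. Sites next to these gaps were long in some tables. At 226 the time was 23.8 in sarkosyl-free replicate 1, at 225 it was 2.20 and 1.31 with sarkosyl, and at 307 it was 2.51 in sarkosyl replicate 1. At 124 the times were 2.47 and 1.29 with sarkosyl against 6.49 and 0.557 without it. Sarkosyl-free replicate 1 had its shortest minus-strand time, 0.159, at 381, the listed position nearest to MT-TF, and 0.234 at 374. At 316 both sarkosyl times, 1.90 and 1.12, were above both sarkosyl-free times, 0.428 and 0.275. At 337 the times were 0.749, 0.730, 0.814 and 4.48.

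On the other side, between MT-TP and the end of the numbering, 26 positions ran from 16024 to 16438. At 16428, listed in all 4 tables, the times were 0.993 and 1.06 with sarkosyl against 7.87 and 14.3 without it, and the buffers did not overlap. At 16399 they were 0.937, 1.07, 3.18 and 1.30, and at 16204 they were 1.11, 1.07, 1.85 and 0.971. The longest minus-strand time of sarkosyl-free replicate 1, 41.7, was at 16087, which no other table listed. No sequence is shown for the control region.

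Single sites were compared between buffers with limma across the 2967 positions on all chromosomes listed in all 4 tables, each table centred on its median over them. Of the 67 minus-strand positions, 0 passed a Benjamini-Hochberg adjusted p of 0.05, and the share over all positions was 0%. The smallest adjusted p among them was 0.155. At an unadjusted p under 0.05 there were 10 of 67 (14.9%), against 23.2% of all positions. Of these, 2 were longer with sarkosyl (12.0% of all positions) and 8 were shorter (11.2% of all positions). After centring, both sarkosyl tables lay above both sarkosyl-free tables at 8 of 67 positions (31.6% of all positions) and below both at 16 (25.7% of all positions). The share of minus-strand positions that were longer with sarkosyl was thus below that of all positions on both counts, and the share that were shorter was near it. Without sarkosyl-free replicate 1 the count at the adjusted threshold was 41 (61.2%, against 53.8% of all positions), of which 28 were longer with sarkosyl. Without sarkosyl-free replicate 2 it was 9 (13.4%, against 22.2% of all positions), all shorter. In these fits the lone sarkosyl-free table is assumed to vary like the sarkosyl tables, which supply the spread. On normal scores of ranks within each table it was 1, against 7.79% of all positions, and with a quantile normalization it was 3, against 5.33% of all positions. Centring on the minus-strand positions themselves, added after seeing the data, gave 0.

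The 3 positions with the smallest limma p-values were all shorter with sarkosyl, and 2 of them were in gene-free sequence antisense to a protein gene. Gene-free sequence held 59 of the 67 positions listed in all 4 tables. At 15687, antisense to MT-CYB, the times were 1.60 and 0.957 with sarkosyl against 14.1 and 18.5 without it. Its log2 difference was -3.57 (SE 0.75, limma adjusted p = 0.155). At 11372, antisense to MT-ND4, the times were 0.804 and 1.11 with sarkosyl against 9.26 and 12.2 in the sarkosyl-free tables, and the difference was -3.35 on the log2 scale (SE 0.72, limma adjusted p = 0.155). The third was 4328 at the end of MT-TQ, with a log2 difference of -4.18 (SE 0.90, limma adjusted p = 0.155). At 15323, also antisense to MT-CYB and among the 3 longest by mean, the times were 1.14 and 0.951 with sarkosyl against 12.5 and 10.1 without it. At each of these 4 positions both sarkosyl-free times lay above both sarkosyl times, and the 2 replicates of each buffer differed by less than the buffers did. Because 3 of them were picked for their small p-values, such a separation follows from the choice. After centring, this order was found at 23.9% of the 67 positions and at 25.7% of all positions.
Site 15687: gggcgaaatattatgCtttgttgttt
Site 11372: aaagaggtatctttaCtataaaagct
Site 15323: ggaggtggagtgttgCtagggctgca

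With sarkosyl, the shortest site of each table was gene-free, as were 419 of all 490 sites in replicate 1 and 422 of 493 in replicate 2. The shortest was 0.403 in replicate 1, at 13596 antisense to MT-ND5, where replicate 2 had 0.706. In replicate 2 it was 0.588, at 3892 antisense to MT-ND1, a position replicate 1 did not list.

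The base at the site differed between buffers, on a strand where C made up 13.0% of the bases that the gene transcripts cover. With sarkosyl, C was the base at 59.9% and 57.3% of sites (of 449 and 452 with a known base). Without sarkosyl it was at 23.1% and 24.0% (of 290 and 263), and C was the next base in transcription at 45.7% and 44.3%. The base before the site was G at 56.5% and 53.7% of sarkosyl sites and 51.2% and 46.6% of sarkosyl-free sites, against 31.1% of all bases. The motif GC, with C at the site and read on the minus strand only, was found at 30.4% and 28.2% of sarkosyl sites, at 15.5% and 14.1% of sarkosyl-free sites and at 4.30% of all positions. The longer motif GCT, which contains it, was found at 15.9% and 14.9% with sarkosyl, 6.92% and 6.90% without it and 1.70% of all positions. Positions 15687 and 15323 above, among the longest by mean, carry GCT in this register, and so does 2828, among the shortest.

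A shift of 1 base between buffers was also seen in the positions. Of the sarkosyl-free sites, 39 to 43 per pair of tables (13.2% to 13.6%) lay 1 base upstream of a sarkosyl site, and 16 to 23 (5.57% to 7.26%) lay 1 base downstream. Within a buffer the corresponding counts were 6 to 8 in either direction. The positions themselves were taken as counted from 1, since C then peaked at the same offset on both strands with sarkosyl. The median log2 time by base ranged from -0.70 (A, 9 sites) to -0.20 (C) in sarkosyl replicate 1 and from -0.0029 (A, 13 sites) to 0.13 (C) in sarkosyl replicate 2. It ranged from 0.65 (G) to 1.15 (C) in sarkosyl-free replicate 1 and from -1.35 (G and T) to -0.25 (C) in sarkosyl-free replicate 2. Sites with C thus had the longest median in each of the 4 tables, described here without a test.

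Part of the mitochondrial genome has a close copy on chromosome 1, and sites there bear on these values. The copied stretch covers chrM:3929-9738 in 3 blocks, and on its chromosome 1 side the tables listed 149, 142, 106 and 95 minus-strand sites. Of these, 76, 73, 45 and 45 (51.0%, 51.4%, 42.5% and 47.4%) corresponded to the same base as a listed mitochondrial site, against 0 to 2 after a shift of 1000 bases. Their pausing times were close to those of the mitochondrial site, with median log2 differences of 0.02, 0.01, 0 and -0.04 and a rho of 0.80 to 0.94. How the authors divided reads between the copies is not given in the sources used here, and its part in the values was not tested. The copied stretch includes the ends of MT-TQ, MT-TA, MT-TN, MT-TC, MT-TY and MT-TS1. The end sites of MT-TE and MT-TP lie outside it and included the longest times of 3 of the 4 tables, of which the 1000 at MT-TP is the rounding limit. What copies contribute to the times at either set of ends was not tested.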

How the data were processed

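The submitters' processing notes name cutadapt 1.14, HISAT2 2.1.0, SAMtools, bedtools and the build hg38; the role of each tool, the site caller and the rate model are not given in the sources used here. The deposited tables give a fitted rate and its quartiles per site, in other units than counts, and a pausing time that was 1 divided by the median rate in every row, per the file headers and values. Rates are rounded to 3 decimals. Tables were matched to groups by name, and the 1 sample labelled Trp treatment was not analysed here.

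Sites were taken by chromosome and strand. Genes came from GENCODE 29 and minus-strand sequence from the transcripts of its 37 mitochondrial genes, which cover 15358 bases. Classes were compared within each table by median log2 pausing time, and buffers by a two-sided exact permutation test over 4 tables. Single sites were tested with limma 3.58.1 (R 4.3.3, two-sided, Benjamini-Hochberg over 2967 positions) and the step was tested on simulated data. Python 3.11.15, numpy 2.4.6, pandas 2.3.3 and matplotlib 3.10.9 were used. The members, lists and tests were chosen with earlier results of these data known. Single sites were named by rule: the 3 longest, 3 shortest and 3 smallest limma p among positions in all tables, the extremes of each table, and in each region the site in most tables. Other named sites (tRNA and other gene ends, MT-TL1, gap edges, further sites in MT-ND6, MT-TS1 and the control region) were chosen after their values were seen. The labels give no batch. The number of value columns without a group was 0. The limma p-values rest on the spread between the 2 tables of a buffer, pooled over both buffers and shrunk across the 2967 positions. The exact permutation test only compares the ways of dividing 4 tables between the buffers.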

Additional observations from a re-analysis of the deposited data

Results flagged for a closer look

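The buffers lay on opposite sides of 0 in 2 class comparisons. For MT-ND6 against gene-free sequence, both sarkosyl tables were above 0 (0.15 and 0.06) and both sarkosyl-free tables were below it (-0.77 and -0.01), a difference of 0.50 on the log2 scale; the exact permutation test could not go below the p of 0.33 it gave, and the tables overlapped with 1 site per 50 bases, with only positions in all 4 tables and without positions copied in nuclear transcripts. For the tRNA genes, both sarkosyl tables were just below 0 (-0.06 and -0.01) and both sarkosyl-free tables were above it (1.84 and 5.24), a difference of -3.57 with the same p. Neither difference could be shown at 2 tables per buffer, and the values nearest to 0 (-0.01 in both comparisons) lay within the replicate SD of 0.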

How the results depend on the processing

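Of 161 alternatives to the results, 139 were counted as kept, 3 as reversed and 19 as moved, and the cause of each was not tested. A difference between buffers counted as kept if its sign stayed, whatever its size. The same held for a buffer's own value when 1 table was left out. Other values of a buffer counted as kept within 1 replicate SD, and counts of sites only if equal. Kept differences could thus change in size, as for MT-ND6 (0.50, but 0.0544 with 1 site per 50 bases). With 2 tables per buffer the SD is wide, so staying within it says little. The filter for the more certain sites can also select on pausing time, as said above. The level against autosomes between buffers (1.58) was -0.20 among the more certain 50% of sites and ranged from -0.40 to 3.55 when each table was left out; with sarkosyl (-0.57) it was -0.0256 and without it (-2.15) 0.17 among the more certain sites. The level against the plus strand (-0.45) was 0.19 among the more certain sites, and without sarkosyl (0.10) ranged from -0.32 to 0.53 when a table was left out. The separation of the buffers was also lost for MT-ND6 with 1 site per 50 bases, with only sites in all 4 tables and without nuclear copies (exact permutation p = 1 for each), for the control region by means and for its part from position 1 to MT-TF (p = 0.67), and for the origin window with 200 bases on either side (p = 0.67). With sarkosyl, MT-ND6 (0.10) was 0.27 by means and 0.0311 with 1 site per 50 bases. The tRNA genes (-0.03) were 0.0089 by means and -0.0751 without end sites, an alternative added after seeing the data. The control region (0.14) ranged from -0.0837 to 0.357 when a table was left out. The origin window with sarkosyl (0.19) was 0.44 by means, 0.86 with 1 site per 50 bases, 0.0221 among the more certain sites, -0.0751 without end sites and -0.0338 with 50 bases on either side. Without sarkosyl (4.87) it was 0.50 without end sites and 0.58 with 200 bases on either side. The count of single sites past the adjusted threshold (0) was 3 after quantile normalization, 1 on normal scores and 2 with a replicate block (4.48%, 1.49% and 2.99% of the 67, against 5.33%, 7.79% and 5.43% of all positions). It ranged from 0 to 41 when each table was left out, and over all positions from 0 to 1597. The labels do not say whether replicates of the same number were prepared together. The replicate differences of the 2 buffers had a correlation of 0.01 across all positions, which does not decide it. Leaving out positions with a 31-base copy in annotated nuclear transcripts, added after seeing the data, moved no value past its SD; the planned search of the nuclear genome sequence was not run. Restriction to sites in all 4 tables could not be computed for the tRNA genes and the origin window, nor the certainty filter for MT-ND6. The depth behind a site is unknown, so it sets no limit that could be computed.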
